A study of Saccharomyces cerevisiae with 18 samples.

Results

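The strain YJM975 was compared with the strain RM11 of the budding yeast Saccharomyces cerevisiae during growth on ethanol, in 6 of the series' 18 libraries, 3 cultures of each strain. The transcripts described are those with a mean of 1 TPM or more over these 6 libraries, 6244 of the 6612 in the deposited table, and no strain difference was used to choose them. TPM is an estimate of relative transcript abundance, corrected for length and summing to the same total in each library. Per the labels, both strains were homozygous a/α diploids, RM11a/α and YJM975a/α, grown in S-CSM medium with 2% ethanol as the carbon source. Exponential cultures of 5 mL were taken at an optical density of 0.5 to 1.0 and snap-frozen, and polyadenylated RNA was sequenced. The labels name no deletion, drug or transgene in either group, and all 6 libraries carry 1 sequencing run label. RM11 descends from a vineyard isolate and YJM975 is a clinical isolate. The series also holds both strains in 2% glycerol and 2% glucose, with 3 libraries each. The series design calls the triplicates biological, so the p-values measure the spread between these cultures.

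On ethanol, yeast makes its sugars and its energy from a carbon source that it cannot ferment. Ethanol is oxidised to acetaldehyde, acetate and acetyl-CoA, which feed the mitochondrial respiratory chain and, through the glyoxylate cycle and gluconeogenesis, the synthesis of hexoses. The nutrient-signalling pathways that read carbon supply, Ras with protein kinase A and TOR, also set how much of the cell's transcription goes to making ribosomes.

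The labels were first checked against marker genes. Both strains had reads assigned to genes of both mating types. HMRA1, which encodes the a1 repressor subunit, stood at 47.7, 63.02 and 51.5 TPM in RM11 and at 36.5, 40.7 and 30.8 TPM in YJM975. MATALPHA2, which encodes the other subunit of that repressor, stood at 43.5, 35.05 and 37.3 TPM in RM11 and at 40.3, 42.5 and 37.6 TPM in YJM975. It falls in 1 group of near-identical copies with HMLALPHA2 and with HMRA2 of the a-type cassette. The sum of that group had a mean of 197 TPM in RM11 and 192 in YJM975, so the MATALPHA2 reads cannot be assigned to the α type alone. Haploid-specific and mating genes are repressed in a/α cells. Of 20 such genes 4 were called higher and 8 lower in YJM975, beside 24.9% and 19.6% of all genes tested. Those counts compare the strains and do not test repression. The a-factor gene MFA1, a member of this list, was at 586 ± 40.1 TPM in the RM11 cultures and 389 ± 24.96 in those of YJM975 (mean ± SD, n = 3). These levels of MFA1 do not show the repression that the a/α label implies, and the reason was not tested. Most of the other members were low, and only 7 of the 20 had a mean of 10 TPM or more. Whether the list as a whole was repressed was not tested. Genes of growth on ethanol were abundant in every library, with ICL1, which encodes isocitrate lyase, the first enzyme of the glyoxylate bypass, between 1508 and 1918 TPM. HXK2, the hexokinase of glucose-grown cells, stayed between 1.33 and 5.95 TPM. Its mean was similar in the libraries labelled glucose, 2.30 TPM in RM11 and 5.08 in YJM975, so it does not mark the medium here. PDC1, a pyruvate decarboxylase gene also chosen as a low marker, was more abundant than ICL1 in every library (values below). These markers therefore do not settle the medium. Libraries of 1 strain correlated across genes with r between 0.9954 and 0.9967 in RM11 and between 0.9954 and 0.9965 in YJM975, and libraries of different strains with r between 0.9659 and 0.9684. The 50 most abundant genes held 39.9% to 42.7% of all TPM in RM11 and 39.6% to 40.0% in YJM975. TPM keeps no read depth, so no counting error can be given.

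Differences between the strains were widespread and mostly small. By limma on log2(TPM + 1), 2775 of 6244 genes (44.4%) were called at an adjusted p below 0.05. Of these, 1552 (24.9% of those tested) were higher and 1223 (19.6%) lower in YJM975. The libraries of the strains did not overlap for 3383 genes (54.2%), being higher in YJM975 for 1877 (30.1%) and lower for 1506 (24.1%). A difference of at least 2-fold was found for 143 higher genes (2.29%) and 153 lower genes (2.45%). The shares of 24.9% higher and 19.6% lower are the background against which the counts of each gene list below are given. The median gene differed by 0.03 on the log2 scale, and after each library was centred on its median 1399 genes were called higher and 1651 lower. All differences below are YJM975 minus RM11 on the log2(TPM + 1) scale with their SE, which understates the change of genes at low TPM, and adjusted p-values are those of limma over all 6244 genes. Without limma's adjustment, 3225 genes had p below 0.05.

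**Figure D1:**
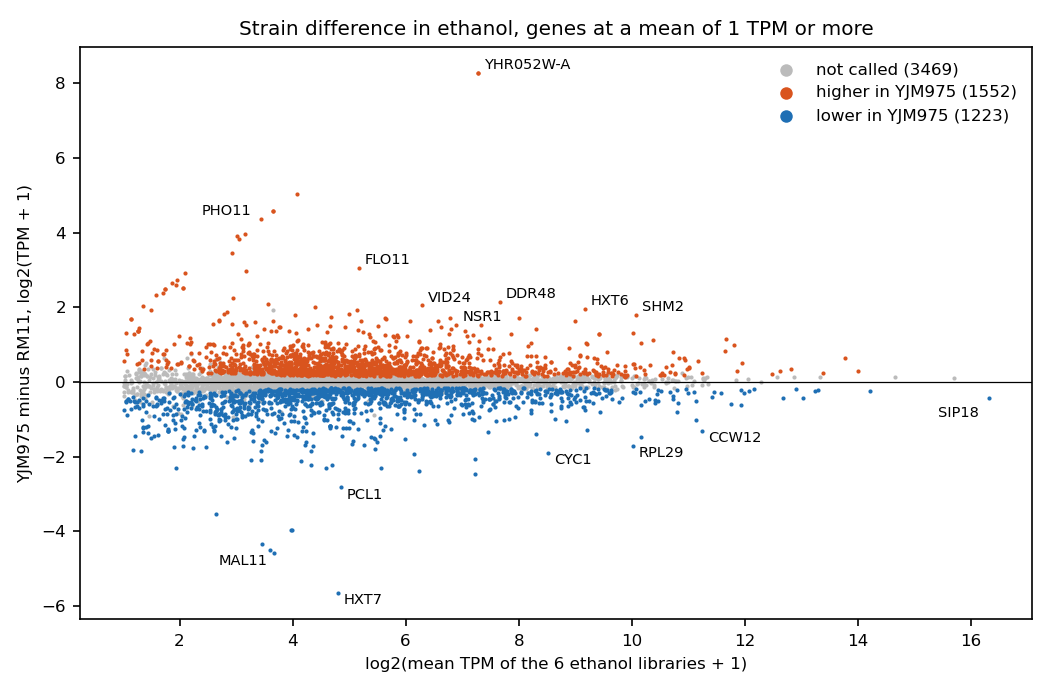
Strain difference of each of the 6244 tested genes (y axis, YJM975 minus RM11, log2 of TPM + 1) against its mean level over the 6 ethanol libraries (x axis, log2 of mean TPM + 1). Orange points (1552) were called higher and blue points (1223) lower in YJM975 by limma, grey points were not called, and the height of YHR052W-A, listed at 0 in RM11, depends on the pseudocount.

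The genes that build ribosomes were higher in YJM975 almost to the last member. Of 130 ribosome biogenesis genes, which process ribosomal RNA and assemble the subunits in the nucleolus, 125 were called higher and none lower, against the 24.9% and 19.6% of all genes, with a median difference of 0.59 beside 0.03 for all genes. The 5 not called were JJJ1, LOC1, RIO1, TIF6 and UTP20. NSR1, the yeast nucleolin, stood at 62.4, 58.5 and 59.6 TPM in RM11 and at 188, 155 and 187 TPM in YJM975. DBP2, an RNA helicase of ribosomal RNA processing, stood at 17.5, 12.9 and 14.7 TPM in RM11 and at 42.96, 39.2 and 48.7 TPM in YJM975. In neither gene did the libraries of the strains overlap, and the differences were 1.53 ± 0.08, adjusted p = 1.36e-07 for NSR1 and 1.48 ± 0.11, adjusted p = 1.79e-06 for DBP2. NOP15, needed for maturation of the large subunit, differed by 1.27 ± 0.06 (adjusted p = 1.35e-07). MRT4, an assembly factor of the large subunit, differed by 1.20 ± 0.06 (adjusted p = 1.35e-07). The list as a whole took 0.495%, 0.495% and 0.479% of all TPM in the RM11 libraries and 0.706%, 0.672% and 0.699% in the YJM975 libraries, so that every YJM975 library was above every RM11 library.

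Subunits of RNA polymerases I and III, which transcribe the ribosomal and transfer RNA genes, followed the same direction in 18 of 21 genes, with none called lower and a median of 0.36. RPA12, a subunit of polymerase I, stood at 34.4, 35.8 and 36.1 TPM in RM11 and at 75.9, 77.9 and 74.9 TPM in YJM975, a difference of 1.08 ± 0.06, adjusted p = 1.46e-07 with no overlap between the strains. RPA34 and RPA49, also of polymerase I, differed by 1.08 ± 0.06 (adjusted p = 4.17e-07) and 0.92 ± 0.08 (adjusted p = 4.40e-06). RPC37, a subunit of polymerase III, differed by 0.82 ± 0.06 (adjusted p = 1.17e-06).

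Many promoters of these genes share the PAC core, GATGAG, a short element named for the genes of polymerases A and C. It was searched on both strands in the 300 bases from 350 to 51 before the start codon of assembly R64 (strain S288C, RefSeq), and was present in 113 of 130 ribosome biogenesis promoters (86.9%) and 17 of 21 polymerase promoters (81.0%), beside 19.3% of all 5728 promoters scanned. Below are 220 bases, from 320 to 101 before the start codon, of the promoters of NSR1 and DBP2, the members with the largest differences in their list. The capitals mark CTCATC, the motif read on the opposite strand, which begins 187 bases before the start codon in NSR1 and 155 in DBP2.
NSR1 (chrVII:807757-807976, minus strand): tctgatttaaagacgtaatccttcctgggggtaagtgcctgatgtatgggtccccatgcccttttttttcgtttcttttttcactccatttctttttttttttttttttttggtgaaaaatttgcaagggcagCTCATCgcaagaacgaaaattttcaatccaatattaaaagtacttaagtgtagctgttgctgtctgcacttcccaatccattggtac
DBP2 (chrXIV:413319-413538, plus strand): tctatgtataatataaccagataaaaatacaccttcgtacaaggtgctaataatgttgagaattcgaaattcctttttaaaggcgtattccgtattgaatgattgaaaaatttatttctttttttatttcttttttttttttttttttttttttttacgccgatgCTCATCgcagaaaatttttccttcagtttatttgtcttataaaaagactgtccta
Across all genes scanned, both lists above among them, 406 of 1107 with a GATGAG in the window were called higher (36.7%), and 1043 of the 4621 without one (22.6%). The share without those lists was not computed. These are matches in the reference strain, and the promoters of RM11 and YJM975 were not examined.

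The proteins of the ribosome itself differed far less than the factors that assemble it. Of 81 large-subunit protein genes, 38 were higher and 3 lower, with a median of 0.17, and of 56 small-subunit protein genes 20 were higher and none lower, with a median of 0.14. Under median centring the counts of higher genes were 20 and 13, with library weights the small-subunit count was 33, and the large-subunit count was 23 without RM11 replicate 2, 24 without YJM975 replicate 2 and 22 without YJM975 replicate 3. The large-subunit genes took 5.09%, 4.91% and 4.99% of all TPM in the RM11 libraries and 5.14%, 5.67% and 5.36% in the YJM975 libraries. RPL10, a large-subunit protein that joins late in assembly, stood at 931, 798 and 918 TPM in RM11 and at 1099.6, 1269.6 and 1295 TPM in YJM975, a difference of 0.47 ± 0.08, adjusted p = 8.69e-04. Single genes stood apart from the rest. RPS9A, 1 of a pair of genes for a small-subunit protein, stood at 53.6, 49.8 and 51.3 TPM in RM11 and at 140.1, 146 and 147 TPM in YJM975, a difference of 1.47 ± 0.06, adjusted p = 1.85e-08. RPL29, a large-subunit protein gene that is dispensable for growth, went the other way and stood at 1433, 1654 and 1676 TPM in RM11 and at 421, 576 and 460.5 TPM in YJM975, a difference of -1.72 ± 0.11, adjusted p = 5.55e-07. For both genes the strains did not overlap. RPL18B (-0.27 ± 0.07, adjusted p = 0.0103) and RPL43B (-0.20 ± 0.06, adjusted p = 0.0144) were the other members called lower, RPL43B no longer without YJM975 replicate 1 (-0.17, adjusted p = 0.0579).

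Translation initiation and elongation factors were higher for 18 of 28 genes and lower for none, with a median of 0.23. YEF3, the fungal elongation factor that helps release spent transfer RNA, stood at 131, 108 and 119.6 TPM in RM11 and at 189, 175 and 197 TPM in YJM975, a difference of 0.64 ± 0.08, adjusted p = 5.86e-05. ANB1, the hypoxic isoform of an initiation factor, differed by 0.56 ± 0.12 (adjusted p = 0.00289). TEF4 and EFB1, both subunits of the exchange factor for elongation, differed by 0.44 ± 0.08 (adjusted p = 8.26e-04) and 0.41 ± 0.07 (adjusted p = 4.69e-04).

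**Figure D2:**
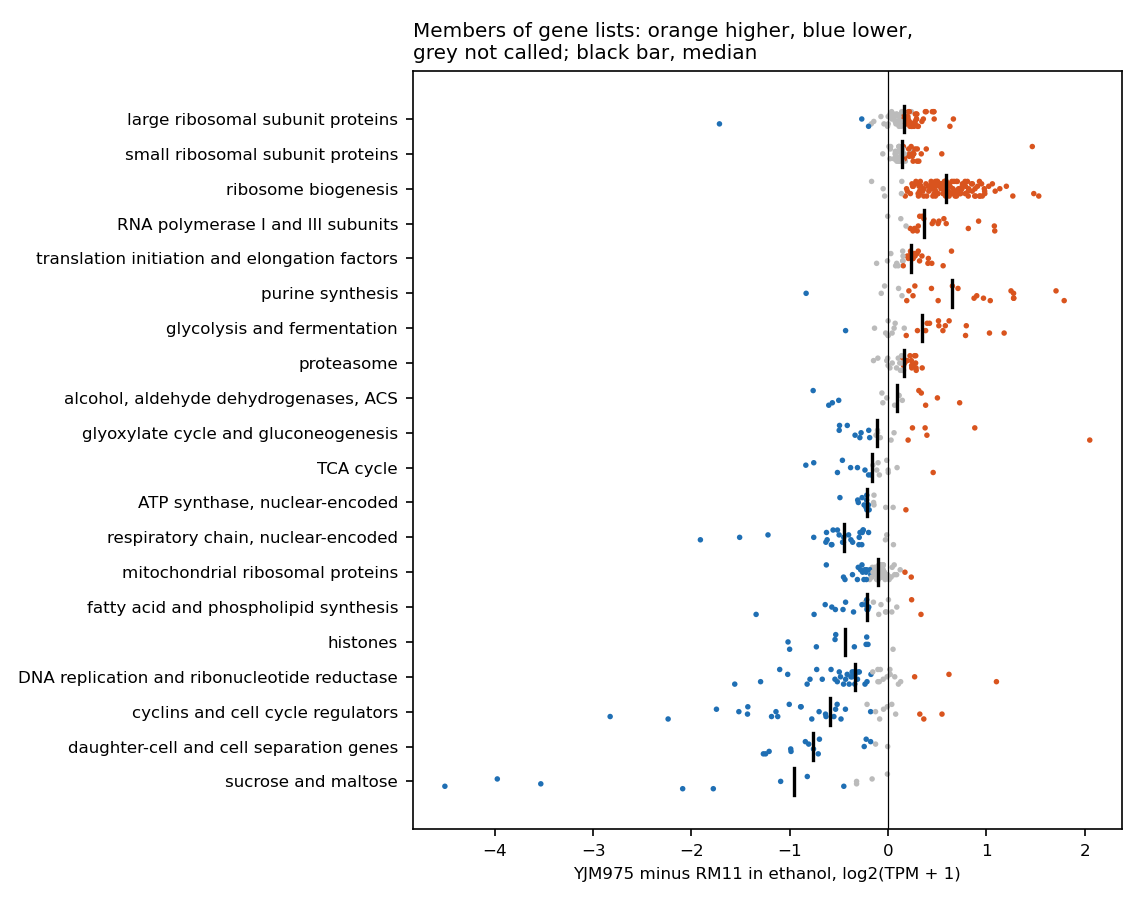
Strain difference in ethanol (x axis, YJM975 minus RM11, log2 of TPM + 1) of every tested member of 20 gene lists (rows), with the list median as a black bar. Ribosome biogenesis and purine synthesis lie to the right of 0 with medians of 0.59 and 0.65, and the respiratory chain, cyclins and cell separation genes to the left with medians of -0.45, -0.59 and -0.76.

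Purine synthesis and the folate-linked supply of carbon units to it were also higher. Of 23 genes, 18 were called higher and 1 lower, with a median of 0.65, and the list took 0.240%, 0.217% and 0.229% of all TPM in the RM11 libraries and 0.481%, 0.449% and 0.486% in the YJM975 libraries. SHM2, the cytosolic serine hydroxymethyltransferase that passes carbon from serine to folate, stood at 506, 453 and 488 TPM in RM11 and at 1728, 1539.6 and 1750.3 TPM in YJM975. MTD1, the cytosolic methylenetetrahydrofolate dehydrogenase next to it in the folate pathway, stood at 119, 117 and 123 TPM in RM11 and at 391, 388 and 399.6 TPM in YJM975. Both genes were separated between the strains in every library, with differences of 1.79 ± 0.07, adjusted p = 1.70e-08 for SHM2 and 1.71 ± 0.05, adjusted p = 3.43e-09 for MTD1. ADE13, adenylosuccinate lyase, differed by 1.28 ± 0.06 (adjusted p = 4.69e-08). ADE4, the amidotransferase that opens the pathway, differed by 1.28 ± 0.06 (adjusted p = 4.98e-08). The exception was ADE17, which encodes with its paralog ADE16 the enzyme of the last steps to inosine monophosphate. It stood at 186, 168 and 178 TPM in RM11 and at 101, 92.9 and 103 TPM in YJM975, a difference of -0.83 ± 0.06, adjusted p = 2.58e-06, while ADE16 differed by 0.14 ± 0.07 and was not called (adjusted p = 0.116).

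TGACTC, the core bound by the amino acid regulator Gcn4 and the purine regulator Bas1, occurred in 12 of the 23 purine promoters (52.2%), beside 8.29% of all 5728. It was not particular to them. Among the amino acid lists described below, which did not move as a block, it occurred in 11 of 12 arginine promoters (91.7%) and 9 of 12 branched-chain promoters (75.0%). The counts were 12 of 21 for histidine and aromatic promoters (57.1%) and 4 of 9 for lysine promoters (44.4%). The same 220-base windows of SHM2 and MTD1, the genes with the largest differences in the list, are given with the matches in capitals, GAGTCA being the motif on the opposite strand. They begin 277 and 227 bases before the start codon in SHM2 and 280 and 174 in MTD1.
SHM2 (chrXII:259502-259721, minus strand): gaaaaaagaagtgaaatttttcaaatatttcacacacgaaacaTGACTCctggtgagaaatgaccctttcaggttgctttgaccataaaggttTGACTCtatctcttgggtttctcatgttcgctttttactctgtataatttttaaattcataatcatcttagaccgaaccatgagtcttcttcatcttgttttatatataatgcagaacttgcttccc
MTD1 (chrXI:590075-590294, plus strand): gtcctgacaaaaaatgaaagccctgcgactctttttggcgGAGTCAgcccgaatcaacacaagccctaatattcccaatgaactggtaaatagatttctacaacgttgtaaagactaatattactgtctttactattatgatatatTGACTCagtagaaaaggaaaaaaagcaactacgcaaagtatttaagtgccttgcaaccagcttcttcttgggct
Of 475 genes with TGACTC in the scanned window, purine genes among them, 158 were called higher (33.3%), and of 5253 without it 1291 (24.6%).

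Amino acid synthesis did not move as a block. Among pyrimidine genes, 6 of 10 were higher, led by URA7, a CTP synthase, at 0.68 ± 0.10 (adjusted p = 2.91e-04), and URA10, the minor orotate phosphoribosyltransferase, was lower at -0.53 ± 0.07 (adjusted p = 9.06e-05). GLN1, glutamine synthetase, stood at 765, 739 and 751 TPM in RM11 and at 1586, 1420.1 and 1645 TPM in YJM975, a difference of 1.04 ± 0.06, adjusted p = 5.39e-07. Of 15 genes of ammonium and glutamate metabolism 6 were higher and 3 lower, the latter count being 1 without RM11 replicate 1 or 3 or YJM975 replicate 2 or 3, and 5 with library weights, under median centring or quantile normalization, or after rescaling that leaves out the 50 most abundant genes. GDH1, the NADPH-dependent glutamate dehydrogenase, was among the higher ones at 0.58 ± 0.08 (adjusted p = 1.37e-04). Of 12 arginine genes 5 were higher and 3 lower, and the named ones split by role. CPA1, of carbamoyl phosphate synthetase, differed by 0.80 ± 0.06 (adjusted p = 3.08e-06) and ARG3, ornithine carbamoyltransferase, by 0.78 ± 0.07 (adjusted p = 7.34e-06). The breakdown enzymes went the other way. CAR1, arginase, stood at 65.8, 56.1 and 60.3 TPM in RM11 and at 19.8, 20.5 and 23.6 TPM in YJM975, a difference of -1.47 ± 0.08, adjusted p = 2.42e-07, and CAR2, ornithine transaminase, differed by -1.11 ± 0.06 (adjusted p = 3.27e-07).

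In sulfur metabolism 9 of 26 genes were higher and 5 lower. SAM1, a synthetase of the methyl donor S-adenosylmethionine, stood at 23.8, 21.1 and 21.6 TPM in RM11 and at 75.3, 69.6 and 81.04 TPM in YJM975, a difference of 1.72 ± 0.07, adjusted p = 3.98e-08, and its paralog SAM2 was lower at -0.53 ± 0.07 (adjusted p = 1.20e-04). SAM3, the permease for S-adenosylmethionine, and MUP1, the methionine permease, differed by 1.01 ± 0.07 (adjusted p = 7.88e-07) and 0.78 ± 0.08 (adjusted p = 1.47e-05). MET3, ATP sulfurylase at the head of sulfate assimilation, stood at 26.7, 22.7 and 24.2 TPM in RM11 and at 10.4, 9.28 and 10.2 TPM in YJM975, a difference of -1.22 ± 0.08, adjusted p = 6.66e-07. Of 12 branched-chain genes 3 were higher and 4 lower. LEU2, isopropylmalate dehydrogenase, differed by 1.08 ± 0.07 (adjusted p = 5.77e-07) and ILV5, acetohydroxyacid reductoisomerase, by 0.66 ± 0.05 (adjusted p = 3.97e-06), while BAT2, the cytosolic transaminase, differed by -0.50 ± 0.08 (adjusted p = 7.80e-04). Lysine synthesis had 1 of 9 genes higher, LYS2 at 0.59 ± 0.07 (adjusted p = 4.48e-05), and 4 lower, with LYS1, the last enzyme, at -0.76 ± 0.06 (adjusted p = 2.52e-06). Of 21 histidine and aromatic genes 9 were higher and 5 lower, HIS7 at 0.97 ± 0.06 (adjusted p = 4.02e-07) and the aromatic transaminase ARO9 at -0.70 ± 0.07 (adjusted p = 1.44e-05) having the largest differences in each direction. The medians of the branched-chain, arginine and sulfur lists lay between 0.00 and 0.04 and turned negative under median centring.

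Nuclear-encoded genes of the respiratory chain were lower in YJM975. Of 29 genes, 26 were called lower and none higher, against 19.6% and 24.9% of all genes, with a median of -0.45, and the counts were the same under median centring and quantile normalization. The list took 3.77%, 3.86% and 3.83% of all TPM in the RM11 libraries and 2.88%, 2.87% and 2.85% in the YJM975 libraries, with no overlap between the strains. CYC1, the main isoform of cytochrome c, stood at 559, 588 and 590.2 TPM in RM11 and at 146, 152 and 163 TPM in YJM975. CYC7, its minor and hypoxic isoform, stood at 63.9, 63.1 and 62.5 TPM in RM11 and at 21.7, 22.6 and 20.4 TPM in YJM975. Every YJM975 library was below every RM11 library in both genes, with differences of -1.91 ± 0.06, adjusted p = 3.43e-09 for CYC1 and -1.51 ± 0.06, adjusted p = 2.41e-08 for CYC7. CYB2, the lactate dehydrogenase that donates electrons to cytochrome c, stood at 37.5, 32.9 and 32.9 TPM in RM11 and at 14.4, 14.8 and 13.3 TPM in YJM975, a difference of -1.22 ± 0.07, adjusted p = 4.14e-07.

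Every complex of the chain held genes called lower. SDH1, the flavoprotein of succinate dehydrogenase, stood at 804, 661 and 723 TPM in RM11 and at 424, 426 and 439 TPM in YJM975, a difference of -0.76 ± 0.07, adjusted p = 1.22e-05. SDH4, a membrane subunit, differed by -0.52 ± 0.06 (adjusted p = 9.32e-05), and SDH2, its iron-sulfur subunit, was not called at -0.01 ± 0.06 (adjusted p = 0.87). The 9 tested genes of the cytochrome bc1 complex, COR1, CYT1, RIP1, QCR2, QCR6, QCR7, QCR8, QCR9 and QCR10, were all called lower, between -0.25 for COR1 and -0.58 for CYT1. Of the cytochrome c oxidase genes, COX4, COX5A, COX6, COX7, COX8, COX9, COX12 and COX13 were lower, from -0.25 for COX13 to -0.63 for COX12. COX5B, the hypoxic alternative to COX5A, was not called at 0.05 ± 0.07 (adjusted p = 0.574), and COX5A stood at 1557, 1633 and 1695 TPM in RM11 and at 1119.7, 1079 and 1112 TPM in YJM975. Of the internal and external NADH dehydrogenases that take the place of complex I, NDI1 differed by -0.30 ± 0.07 (adjusted p = 0.00412), NDE1 by -0.63 ± 0.08 (adjusted p = 6.23e-05) and NDE2 by -0.03 ± 0.07, not called (adjusted p = 0.769). GUT2, the mitochondrial glycerol phosphate dehydrogenase, differed by -0.57 ± 0.07 (adjusted p = 5.30e-05).

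Of 17 nuclear-encoded ATP synthase genes, 11 were lower and 1 higher, with a median of -0.22, and the lower count was 7 without YJM975 replicate 2 and 6 without YJM975 replicate 3. ATP20, a membrane subunit, differed by -0.49 ± 0.06 (adjusted p = 5.71e-05), and the higher gene was INH1, the inhibitor of the enzyme's ATPase activity, at 0.18 ± 0.05 (adjusted p = 0.0181), not called under median centring or without YJM975 replicate 1 or 3 (0.13, 0.18 and 0.18). Of 18 TCA cycle genes 9 were lower and 1 higher, with a median of -0.16. SDH1 belongs to both this list and that of the respiratory chain, so their counts are not fully separate. LSC2, of succinyl-CoA ligase, stood at 399, 350.1 and 388 TPM in RM11 and at 209.9, 218 and 206 TPM in YJM975, a difference of -0.84 ± 0.06, adjusted p = 2.37e-06, and CIT3, a minor citrate synthase, was higher at 0.46 ± 0.09 (adjusted p = 0.00163). Of 66 mitochondrial ribosomal protein genes, 16 were lower and 2 higher, or at most 1 higher without RM11 replicate 2 or 3 or any YJM975 library, a share of lower genes near the 19.6% of all genes. The count of lower genes was 29 under median centring. CCAAT, the core bound by the Hap complex that activates respiratory genes, occurred in 24 of 29 respiratory chain promoters (82.8%), beside 43.4% of all 5728. Over all genes scanned, that list among them, 21.7% of 2484 with it and 18.2% of 3244 without it were called lower.

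Heme and oxygen-regulated genes were lower for 11 of 20 and higher for 3, with a median of -0.18. The lower count was 7 without RM11 replicate 1 or 3 or YJM975 replicate 2 or 3. HMX1, heme oxygenase, stood at 62.00, 56.9 and 52.9 TPM in RM11 and at 18.4, 15.6 and 17.6 TPM in YJM975, a difference of -1.68 ± 0.08, adjusted p = 8.25e-08. YHB1, the flavohemoglobin that detoxifies nitric oxide, differed by -0.70 ± 0.07 (adjusted p = 1.06e-05). The higher members were HEM13, coproporphyrinogen oxidase, at 0.67 ± 0.07 (adjusted p = 2.09e-05), ANB1 given above and ROX1, the hypoxic repressor, at 0.54 ± 0.06 (adjusted p = 4.74e-05).

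Of 16 genes for enzymes that take ethanol to acetyl-CoA 5 were higher and 4 lower, shares near the 24.9% and 19.6% of all genes. ADH2, the alcohol dehydrogenase that oxidises ethanol, stood at 440.5, 365 and 412 TPM in RM11 and at 624, 686 and 706 TPM in YJM975, a difference of 0.73 ± 0.08, adjusted p = 2.74e-05 with every YJM975 library above every RM11 library. ADH1, the fermentative isoenzyme, differed by 0.38 ± 0.07 (adjusted p = 7.91e-04). The mitochondrial and cytosolic acetaldehyde dehydrogenases ALD4 and ALD6 were higher, at 0.50 ± 0.07 (adjusted p = 1.90e-04) and 0.34 ± 0.07 (adjusted p = 0.00259), and the stress-induced ALD2 and ALD3 lower, at -0.57 ± 0.06 (adjusted p = 2.29e-05) and -0.50 ± 0.06 (adjusted p = 4.10e-05). ACS1, the acetyl-CoA synthetase of nonfermentable growth, stood at 596, 514 and 601 TPM in RM11 and at 705, 698 and 717 TPM in YJM975, a difference of 0.31 ± 0.07, adjusted p = 0.00372. ACS2, its glucose-phase counterpart, stood at 164, 139 and 152 TPM in RM11 and at 101, 96.04 and 100.5 TPM in YJM975, a difference of -0.60 ± 0.07, adjusted p = 4.25e-05. ADH7, an NADPH-dependent alcohol dehydrogenase, was lower at -0.76 ± 0.07 (adjusted p = 6.21e-06). ADH3, ADH4, ADH5, ADH6, SFA1, ALD5 and the acetyl-CoA hydrolase gene ACH1 were not called, with differences between -0.06 for ADH6 and 0.14 for ADH3.

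The glyoxylate cycle and gluconeogenesis had small differences in both directions. ICL1 stood at 1714, 1508 and 1654 TPM in RM11 and at 1905, 1787 and 1918 TPM in YJM975, a difference of 0.20 ± 0.06, adjusted p = 0.026. MLS1, malate synthase, stood at 1049.9, 919 and 982 TPM in RM11 and at 1313, 1243 and 1320.0 TPM in YJM975, a difference of 0.39 ± 0.06, adjusted p = 5.18e-04, and CIT2, the peroxisomal citrate synthase, differed by 0.38 ± 0.07 (adjusted p = 0.00137). ICL1 was not called under median centring (0.16) or without RM11 replicate 2 or 3 or YJM975 replicate 1 or 3, when it differed by 0.15, 0.22, 0.19 and 0.18. PCK1, phosphoenolpyruvate carboxykinase, stood at 484, 412 and 462 TPM in RM11 and at 410.4, 383 and 397 TPM in YJM975, a difference of -0.19 ± 0.07, adjusted p = 0.0466, and FBP1, fructose bisphosphatase, differed by -0.34 ± 0.06 (adjusted p = 8.58e-04). PCK1 stayed called in only 1 of the 6 fits without a library, that without RM11 replicate 2, and differed by -0.14 to -0.21 in the others. The anaplerotic PYC2, pyruvate carboxylase, the cytosolic isocitrate dehydrogenase gene IDP2 and the succinate-fumarate carrier gene SFC1 differed by -0.50 ± 0.06 (adjusted p = 8.41e-05), -0.49 ± 0.06 (adjusted p = 6.94e-05) and -0.42 ± 0.06 (adjusted p = 2.15e-04).

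The gene of this list that differed most was not an enzyme of either pathway but VID24, a subunit of the ubiquitin ligase that marks gluconeogenic enzymes for degradation when glucose returns. It stood at 31.3, 27.6 and 29.2 TPM in RM11 and at 130.1, 111 and 135 TPM in YJM975, a difference of 2.05 ± 0.08, adjusted p = 2.29e-08. MAE1, the mitochondrial malic enzyme that makes pyruvate from malate, stood at 119, 95.4 and 112 TPM in RM11 and at 211, 186 and 204 TPM in YJM975, a difference of 0.88 ± 0.08, adjusted p = 1.25e-05. CAT8, an activator of gluconeogenic genes, was not called at -0.08 ± 0.06 (adjusted p = 0.346). In all, 6 of the 20 genes were higher and 8 lower, and 5 and 11 under median centring, with 4 lower without RM11 replicate 1 and 5 lower without RM11 replicate 3 or YJM975 replicate 2 or 3.

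Of 24 glycolysis and fermentation genes, 14 were higher and 1 lower in YJM975, with a median of 0.34, or 0.18 over the 21 members at 10 TPM or more. TDH1, a glyceraldehyde phosphate dehydrogenase, stood at 1237, 1185 and 1292 TPM in RM11 and at 2110.2, 2075 and 2262 TPM in YJM975, a difference of 0.80 ± 0.06, adjusted p = 2.32e-06. PDC1, the main pyruvate decarboxylase, stood at 3622, 2853 and 3332 TPM in RM11 and at 4576, 4505 and 4847 TPM in YJM975, a difference of 0.51 ± 0.08, adjusted p = 5.80e-04. HXK2 stood at 2.39, 1.33 and 1.64 TPM in RM11 and at 5.27, 4.56 and 5.95 TPM in YJM975, a difference of 1.18 ± 0.15, adjusted p = 9.15e-05, and PFK27, which makes the activator of phosphofructokinase, differed by 1.03 ± 0.09 (adjusted p = 8.41e-06). PDC5, the minor pyruvate decarboxylase, differed by 0.79 ± 0.11 (adjusted p = 1.69e-04). The exception was GLK1, glucokinase, at -0.43 ± 0.09 (adjusted p = 0.00382), whose reads cannot be told apart from those of the overlapping YCL042W without strand information.

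The glycerol phosphate phosphatases, which make glycerol from glycolytic intermediates, were both higher. GPP1 stood at 269, 227 and 245 TPM in RM11 and at 748, 751 and 805 TPM in YJM975, a difference of 1.64 ± 0.07, adjusted p = 3.97e-08. GPP2, its osmotically induced paralog, stood at 52.1, 46.7 and 53.8 TPM in RM11 and at 167, 157 and 178 TPM in YJM975, a difference of 1.70 ± 0.07, adjusted p = 3.66e-08. In neither did the strains overlap. GPD2, the dehydrogenase of the step before, differed by 0.51 ± 0.06 (adjusted p = 3.66e-05), and GPD1, its paralog, was not called at -0.01 ± 0.05 (adjusted p = 0.931). Among carnitine, acetate and lactate genes 7 of 14 were higher and 4 lower, with YAT1, a carnitine acetyltransferase, at 0.63 ± 0.10 (adjusted p = 3.97e-04). Of 11 glycerol genes in all 3 were higher and 3 lower. Of 19 genes of peroxisomal fatty acid oxidation 3 were higher, or 1 without YJM975 replicate 1, and 3 lower, or 5 without RM11 replicate 2, with a median of 0.01 that turned negative under median centring.

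**Figure D3:**
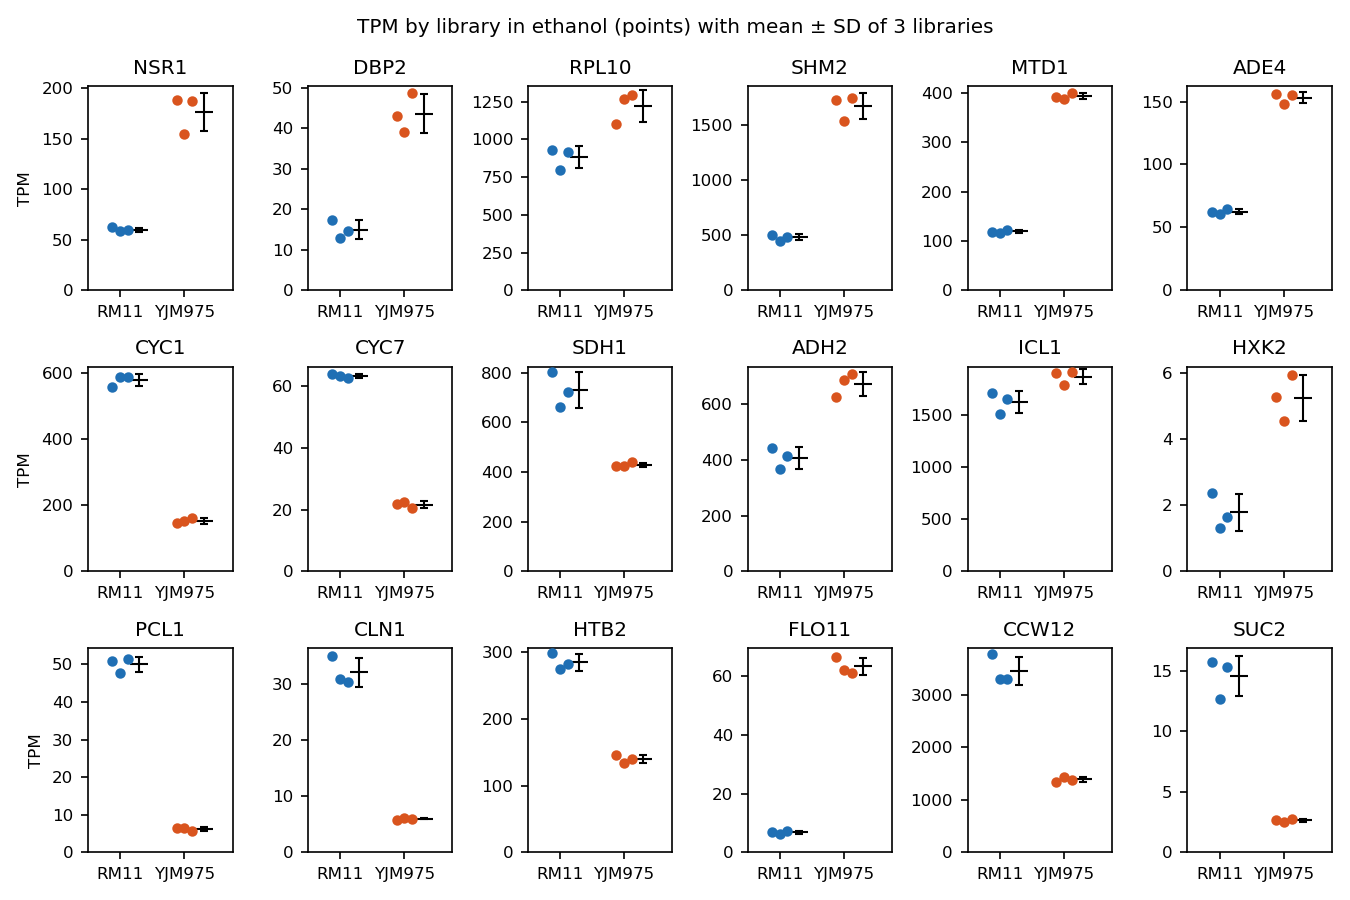
TPM of 18 genes in each of the 6 ethanol libraries (points, RM11 blue and YJM975 orange) with the mean and SD of 3 libraries beside them; each y axis starts at 0. The 3 YJM975 points lie above the 3 RM11 points for genes such as NSR1, SHM2, ADH2 and FLO11, and below them for CYC1, PCL1, CLN1, HTB2 and SUC2.

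While transcripts of the ribosome factory were higher in YJM975, those of the cell division cycle were lower. Since the RNA comes from whole cultures, fewer cells in a phase and less RNA per cell cannot be told apart. Of 32 cyclins and cell cycle regulators, 22 were lower and 3 higher, with a median of -0.59. Most of the list was at low levels, and of the 12 members at 10 TPM or more 5 were lower, with a median of -0.13. PCL1, a G1 cyclin of the kinase Pho85, stood at 51.01, 47.7 and 51.3 TPM in RM11 and at 6.44, 6.48 and 5.65 TPM in YJM975. CLN1, a G1 cyclin of the main cell cycle kinase, stood at 35.04, 31.03 and 30.4 TPM in RM11 and at 5.87, 6.15 and 6.02 TPM in YJM975. Both were several times lower in every YJM975 library than in any RM11 library, with differences of -2.83 ± 0.07, adjusted p = 6.09e-10 for PCL1 and -2.24 ± 0.07, adjusted p = 5.22e-09 for CLN1. CLN2 and PCL2, their paralogs, differed by -1.19 ± 0.08 (adjusted p = 1.34e-06) and -1.43 ± 0.07 (adjusted p = 8.95e-08).

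CLN3, the upstream G1 cyclin, was 1 of the 3 genes that went the other way. It stood at 44.02, 36.2 and 39.8 TPM in RM11 and at 64.2, 50.95 and 62.1 TPM in YJM975, a difference of 0.55 ± 0.10, adjusted p = 9.65e-04. The others were MBP1, the DNA-binding subunit of the factor MBF that activates replication genes, at 0.36 ± 0.09 (adjusted p = 0.00593) and NDD1, an activator of mitotic genes, at 0.32 ± 0.07 (adjusted p = 0.00349). SWI4, the DNA-binding subunit of the related factor SBF that activates G1 cyclin genes, was lower at -0.53 ± 0.09 (adjusted p = 7.19e-04). The mitotic cyclins CLB1 and CLB2 were at low levels, CLB2 at 4.79 ± 0.424 TPM in the RM11 cultures and 0.723 ± 0.0197 in those of YJM975, with differences of -1.52 ± 0.10 (adjusted p = 1.14e-06) and -1.75 ± 0.11 (adjusted p = 6.44e-07). The mitotic polo kinase CDC5 and the transcription factor SWI5 differed by -0.89 ± 0.09 (adjusted p = 2.03e-05) and -1.43 ± 0.13 (adjusted p = 7.50e-06). CLB3 and CLB4 were not called, at -0.01 ± 0.07 (adjusted p = 0.935) and 0.04 ± 0.09 (adjusted p = 0.755), nor was WHI5, the G1 repressor, at 0.08 ± 0.10 (adjusted p = 0.566).

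Genes of the S phase followed. Of 44 genes of DNA replication and ribonucleotide reductase, 29 were lower and 3 higher, with a median of -0.34, and of the 26 at 10 TPM or more 15 were lower. RNR1, the large subunit of ribonucleotide reductase, stood at 17.3, 14.7 and 15.2 TPM in RM11 and at 4.88, 4.65 and 4.50 TPM in YJM975, a difference of -1.56 ± 0.08, adjusted p = 1.67e-07. POL30, the sliding clamp of DNA polymerase, stood at 25.7, 23.3 and 25.3 TPM in RM11 and at 10.3, 11.3 and 11.5 TPM in YJM975, a difference of -1.10 ± 0.07, adjusted p = 6.69e-07. MCD1, a cohesin subunit, differed by -1.30 ± 0.11 (adjusted p = 5.44e-06). The 3 higher genes concern the small subunit of the reductase. RNR2 stood at 101, 92.8 and 105 TPM in RM11 and at 216, 201 and 226 TPM in YJM975, a difference of 1.10 ± 0.07, adjusted p = 4.86e-07. RNR4, its partner, differed by 0.27 ± 0.07 (adjusted p = 0.0108), not called without YJM975 replicate 3 (0.23), and DIF1, which moves that subunit into the nucleus, by 0.62 ± 0.09 (adjusted p = 2.01e-04). Histone genes were lower for 9 of 10, with a median of -0.44. HTB2 stood at 298, 274 and 282 TPM in RM11 and at 146, 135 and 139.5 TPM in YJM975, a difference of -1.02 ± 0.06, adjusted p = 3.34e-07, and HHF2 differed by -1.002 ± 0.07 (adjusted p = 1.98e-06). HHF2 and HHF1 are near-identical copies, both called lower. HTA1 was the 1 histone gene not called, at 0.05 ± 0.05 (adjusted p = 0.478), and its paralog HTA2 differed by -0.73 ± 0.06 (adjusted p = 3.08e-06).

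MBF and SBF bind short elements known as MCB, ACGCGT, and SCB, CGCGAAA. In the scanned windows ACGCGT occurred in 27 of 44 promoters of the replication list (61.4%), beside 3.84% of all 5728, and CGCGAAA in 5 of 32 promoters of the cyclin list (15.6%), beside 4.52%. The windows of PCL1, the gene lowest in its list, and CDC21, a thymidylate synthase gene with a pair of MCB matches, are given with the matches in capitals. In PCL1 they begin 303 and, on the opposite strand as TTTCGCG, 294 bases before the start codon, and in CDC21 158 and 121.
PCL1 (chrXIV:87577-87796, plus strand): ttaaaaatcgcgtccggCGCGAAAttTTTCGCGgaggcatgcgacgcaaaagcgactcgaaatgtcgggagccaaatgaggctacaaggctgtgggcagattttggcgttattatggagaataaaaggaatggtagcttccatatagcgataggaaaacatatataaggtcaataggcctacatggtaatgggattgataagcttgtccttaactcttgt
CDC21 (chrXV:467690-467909, minus strand): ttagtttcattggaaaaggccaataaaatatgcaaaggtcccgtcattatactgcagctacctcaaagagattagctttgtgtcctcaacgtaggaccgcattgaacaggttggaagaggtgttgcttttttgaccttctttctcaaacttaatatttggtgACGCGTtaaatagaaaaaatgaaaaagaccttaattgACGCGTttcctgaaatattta
CDC21 stood at 32.1, 31.1 and 31.5 TPM in RM11 and at 14.5, 16.5 and 14.2 TPM in YJM975, a difference of -1.02 ± 0.07, adjusted p = 1.14e-06. Over all genes scanned, both lists among them, 86 of 220 with ACGCGT were called lower (39.1%) and 1043 of 5508 without it (18.9%), while 22 and 1427 of them were called higher. For CGCGAAA the lower shares were 76 of 259 (29.3%) and 1053 of 5469 (19.3%).

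Late in the cycle, daughter-cell and cell separation genes were lower for 13 of 15, with none higher and a median of -0.76, and of the 9 at 10 TPM or more 7 were lower, with a median of -0.24. AMN1, an antagonist of mitotic exit in daughter cells, stood at 6.36, 5.43 and 6.70 TPM in RM11 and at 2.19, 2.09 and 1.98 TPM in YJM975, a difference of -1.21 ± 0.10, adjusted p = 5.34e-06. CHS2, the chitin synthase of the septum, SUN4, a wall protein of septation, and ASH1, a repressor made in daughter cells, differed by -1.27 ± 0.12 (adjusted p = 1.43e-05), -1.25 ± 0.10 (adjusted p = 3.69e-06) and -0.99 ± 0.08 (adjusted p = 3.23e-06). Meiosis and sporulation genes were lower for 14 of 38 and higher for 3, most of them at low levels. REC8, the meiotic cohesin, was at 5.37 ± 0.594 TPM in the RM11 cultures and 0.934 ± 0.114 in those of YJM975, a difference of -1.72 ± 0.12 (adjusted p = 9.05e-07). IME2, a kinase of meiotic entry, differed by -1.04 ± 0.09 (adjusted p = 5.40e-06). RME1, a repressor of meiosis that is itself low in a/α cells, stood at 66.9, 63.03 and 63.5 TPM in RM11 and at 21.96, 21.4 and 22.1 TPM in YJM975, a difference of -1.52 ± 0.06, adjusted p = 1.64e-08.

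Of 26 flocculin and wall mannoprotein genes 8 were higher and 8 lower, shares near those of all genes (24.9% and 19.6%), and 5 were higher among the 16 at 10 TPM or more. The list took 2.95%, 2.88% and 2.88% of all TPM in the RM11 libraries and 3.41%, 2.92% and 3.25% in the YJM975 libraries. The strains overlapped in this share. FLO11, the flocculin of adhesion and filamentous growth, stood at 6.95, 6.21 and 7.28 TPM in RM11 and at 66.7, 62.2 and 61.3 TPM in YJM975. FLO10, another flocculin, stood at 0, 0 and 0.00703 TPM in RM11 and at 5.59, 5.002 and 5.16 TPM in YJM975. In both the strains were widely separated, and the difference was 3.04 ± 0.07, adjusted p = 4.48e-10 for FLO11. CIS3, a covalently linked wall mannoprotein, stood at 265, 219 and 241 TPM in RM11 and at 59.1, 56.8 and 55.1 TPM in YJM975, a difference of -2.06 ± 0.07, adjusted p = 1.09e-08. CWP1, a mannoprotein placed at birth scars, stood at 478, 443 and 457 TPM in RM11 and at 178, 168 and 175 TPM in YJM975, a difference of -1.40 ± 0.06, adjusted p = 2.45e-08. CCW12, the most abundant of these wall proteins in RM11, stood at 3772, 3304 and 3304 TPM in RM11 and at 1350.2, 1438 and 1379 TPM in YJM975, a difference of -1.31 ± 0.07, adjusted p = 1.35e-07. The flocculin genes FLO1 and FLO9, near-identical copies, were called lower (-0.60 ± 0.12, adjusted p = 0.00258) and higher (0.59 ± 0.11, adjusted p = 0.00115), and their sum was not called (0.09 ± 0.10, adjusted p = 0.466).

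Of 12 sucrose and maltose genes 8 were lower and none higher, and the 4 at 10 TPM or more were all lower. SUC2, invertase, stood at 15.7, 12.7 and 15.3 TPM in RM11 and at 2.65, 2.54 and 2.74 TPM in YJM975, a difference of -2.09 ± 0.10, adjusted p = 5.76e-08. MAL11, a maltose transporter, stood at 20.4, 21.4 and 24.7 TPM in RM11 and at 0.0148, 0 and 0.0288 TPM in YJM975, and MAL13, a MAL activator, stood at 11.4, 10.2 and 10.2 TPM in RM11 and was listed at 0 in the 3 YJM975 libraries. MAL32, a maltase nearly identical to MAL12, stood at 31.2, 26.01 and 29.4 TPM in RM11 and at 1.04, 0.741 and 0.918 TPM in YJM975, and MAL12 did not reach the level for testing. MAL31 and MAL33, the transporter and activator of the other locus, differed by -1.09 ± 0.06 (adjusted p = 1.69e-07) and -0.82 ± 0.06 (adjusted p = 1.72e-06). IMA1, isomaltase, stood at 6.72, 5.60 and 6.50 TPM in RM11 and at 1.05, 1.17 and 1.13 TPM in YJM975, a difference of -1.78 ± 0.11, adjusted p = 3.99e-07. IMA2 was lower at -0.45 ± 0.14 (adjusted p = 0.0255), at under 2 TPM and with near-identical copies in IMA3 and IMA4, which like IMA5 and MPH2 were not called. The sum of IMA2, IMA3 and IMA4 was called lower, at -0.51 ± 0.11 (adjusted p = 0.00265), with means of 4.71 TPM in RM11 and 3.00 in YJM975. IMA2 was not called without RM11 replicate 1 (-0.35) or YJM975 replicate 3 (-0.43) or with the replicate block (adjusted p = 0.0504). IMA3 and IMA4 were called lower under 8 alternatives, median centring among them, and IMA5 under median centring and in the fit on all 18 libraries. Whether a strain lacks such a locus or carries a version too divergent to be counted cannot be told apart from these values.

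Stress genes had no common direction. SIP18, a desiccation gene and the most abundant transcript, stood at 84919, 103640.0 and 93624 TPM in RM11 and at 65481, 74708 and 67084 TPM in YJM975, a difference of -0.44 ± 0.09, adjusted p = 0.00181. DDR2, the next by level, was not called at 0.11 ± 0.07 (adjusted p = 0.241). DDR48, a DNA damage and stress gene, stood at 80.99, 68.6 and 72.7 TPM in RM11 and at 360.0, 327 and 310.5 TPM in YJM975, a difference of 2.15 ± 0.08, adjusted p = 1.10e-08. SPG1, a stationary phase gene, stood at 2089, 1979 and 2022 TPM in RM11 and at 4469, 4457 and 4497 TPM in YJM975, a difference of 1.14 ± 0.05, adjusted p = 7.51e-08, and SNZ1, for vitamin B6 synthesis in stationary phase, differed by 1.11 ± 0.06 (adjusted p = 1.36e-07). Of 25 stationary phase and desiccation genes 8 were higher and 8 lower. Of 29 heat shock and chaperone genes 13 were higher and 5 lower, or 3 lower without RM11 replicate 1. HSP26, a small heat shock protein, stood at 2289, 2169 and 2372 TPM in RM11 and at 1242, 1292 and 1342 TPM in YJM975, a difference of -0.82 ± 0.06, adjusted p = 1.72e-06, and HSP30, of the plasma membrane, differed by -1.03 ± 0.08 (adjusted p = 2.69e-06), while SSE1, a nucleotide exchange factor of Hsp70, was higher at 0.72 ± 0.06 (adjusted p = 5.85e-06). CTT1, cytosolic catalase, differed by -0.56 ± 0.07 (adjusted p = 5.84e-05) in a list of 27 oxidant defence genes with 7 higher and 6 lower, or 3 lower without RM11 replicate 3. Proteasome genes were higher for 17 of 33 and lower for none, by little: the median was 0.16, RPT2 had the largest difference at 0.35 ± 0.06 (adjusted p = 0.00128), and under median centring 12 were higher and 2 lower. Of 21 genes of trehalose and glycogen 3 were higher and 8 lower, or 4 without YJM975 replicate 3, with SGA1, an intracellular glucoamylase, at -0.76 ± 0.08 (adjusted p = 2.01e-05).

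Lipid genes were lower more often than higher. Of 26 genes of fatty acid and phospholipid synthesis 14 were lower and 2 higher, or 1 higher without RM11 replicate 2 or 3 or YJM975 replicate 1 or 2. Of 26 sterol genes 12 were lower and 1 higher. INO1, inositol phosphate synthase, stood at 276, 217 and 260.5 TPM in RM11 and at 99.1, 91.8 and 103 TPM in YJM975, a difference of -1.34 ± 0.09, adjusted p = 8.03e-07. MVD1, of the mevalonate pathway, and ERG4, the last enzyme of ergosterol synthesis, differed by -0.91 ± 0.08 (adjusted p = 4.43e-06) and -0.89 ± 0.08 (adjusted p = 9.19e-06), and the higher sterol gene was ERG25 at 0.38 ± 0.06 (adjusted p = 7.09e-04).

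Metal and vitamin genes moved singly. Of 19 zinc and copper genes 7 were higher and 5 lower, of 22 biotin and thiamine genes 12 and 3, and of 25 phosphate genes 10 and 4, the last count being 2 without RM11 replicate 1 or 3. ZRT1, the high-affinity zinc transporter, stood at 74.1, 69.5 and 76.5 TPM in RM11 and at 210.2, 173 and 188 TPM in YJM975, a difference of 1.36 ± 0.08, adjusted p = 2.60e-07. IZH4, a membrane protein of zinc homeostasis, differed by -1.32 ± 0.07 (adjusted p = 2.04e-07). CUP1-1 and CUP1-2, identical genes for the copper metallothionein whose reads are shared, each stood at 451, 388 and 362 TPM in RM11 and at 941, 1058 and 921 TPM in YJM975, a difference of 1.28 ± 0.09, adjusted p = 9.01e-07. THI4, of thiamine synthesis, stood at 23.8, 21.4 and 23.1 TPM in RM11 and at 73.9, 76.1 and 77.98 TPM in YJM975, a difference of 1.70 ± 0.06, adjusted p = 1.33e-08, and THI7, the thiamine transporter, differed by 1.08 ± 0.07 (adjusted p = 8.03e-07). PHO90, a low-affinity phosphate transporter, was higher at 1.30 ± 0.09 (adjusted p = 1.17e-06). In the iron list 8 of 22 genes were higher and 7 lower, and FIT3, a wall protein that retains siderophores, stood at 556, 504 and 539 TPM in RM11 and at 279.8, 261 and 262 TPM in YJM975, a difference of -0.99 ± 0.06, adjusted p = 4.53e-07. ATG19, the receptor that carries aminopeptidase to the vacuole, stood at 82.3, 75.4 and 82.95 TPM in RM11 and at 189.6, 197 and 183 TPM in YJM975, a difference of 1.23 ± 0.06, adjusted p = 1.14e-07, in an autophagy list with 8 of 32 genes higher, a share like the 24.9% of all genes, and 1 lower. The higher count was 3 to 5 without RM11 replicate 2 or 3 or YJM975 replicate 1 or 2 and 13 with library weights, and the lower count 3 under median centring and 4 under quantile normalization or with library weights.

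Some of the largest differences lay in genes with a near-identical copy, between which the reads were divided. Of 74 groups of such copies tested, 10 had members called in opposite directions, so each was also summed, an analysis added after the data were seen. PHO11, an acid phosphatase, was listed at 0 in the 3 RM11 libraries and stood at 18.9, 20.6 and 19.6 TPM in YJM975. PHO12, its copy, which differs from it in the reference at 4 of 1404 coding bases, stood at 28.99, 26.3 and 28.1 TPM in RM11 and at 6.04, 5.55 and 5.47 TPM in YJM975. Their sum was 28.99, 26.3 and 28.1 TPM in the RM11 libraries and 24.9, 26.1 and 25.1 in the YJM975 libraries, and it was not called (-0.12 ± 0.06, adjusted p = 0.133). The THI5 family behaved likewise: THI5 stood at 0, 0 and 0.0415 TPM in RM11 and at 6.25, 5.15 and 5.84 TPM in YJM975 and THI11 was lower at -0.96 ± 0.07 (adjusted p = 2.31e-06), while the sum over THI5, THI11, THI12 and THI13 was not called (0.06 ± 0.06, adjusted p = 0.438).

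Other sums kept a difference. Of 15 hexose transporters and sensors 5 were higher, or 3 without RM11 replicate 3 and 8 under quantile normalization, and 2 lower, or none with copies summed. The lower members were HXT7 and HXT13, and the sum of HXT13 and its copy HXT17 was not called (-0.04 ± 0.11, adjusted p = 0.809). Outside this list, the sum of the near-identical copies HXT9, HXT11 and HXT12 was called lower (-0.83 ± 0.12, adjusted p = 1.68e-04). Its mean was 4.68 TPM in RM11 and 2.19 in YJM975. HXT7, which encodes a hexose importer of high affinity, stood at 55.4, 52.2 and 54.3 TPM in RM11 and at 0.0733, 0.131 and 0.0676 TPM in YJM975. HXT6, which differs from it at 3 of 1713 coding bases in the reference, stood at 255, 208 and 237 TPM in RM11 and at 993, 721 and 1027 TPM in YJM975. The sum of both was 311, 259.9 and 292 TPM in the RM11 libraries and 993, 721 and 1027 in the YJM975 libraries, a difference of 1.65 ± 0.12, adjusted p = 1.36e-06. SNZ3 was lower at -1.59 ± 0.09 (adjusted p = 1.91e-07) and SNZ2 higher, from at most 0.198 TPM in RM11 to 5.41 TPM or more in YJM975. Their sum was 53.5, 46.4 and 49.3 TPM in the RM11 libraries and 22.8, 21.99 and 19.6 in the YJM975 libraries, a difference of -1.18 ± 0.08, adjusted p = 5.15e-07. The value of a single copy depends on how reads were divided between near-identical sequences.

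**Figure D4:**
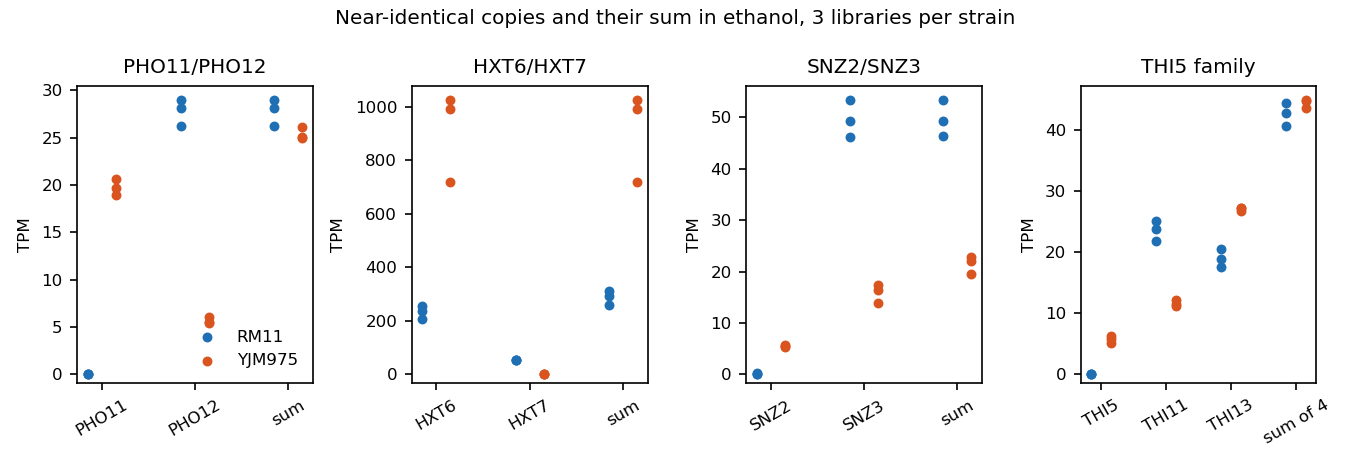
TPM of near-identical copies and of their sum in the 6 ethanol libraries (points, RM11 blue and YJM975 orange), for PHO11 and PHO12, HXT6 and HXT7, SNZ2 and SNZ3, and the THI5 family with THI12 included in the sum. The strains change places between PHO11 and PHO12, whose sum is close in both, and the sum of HXT6 and HXT7 is higher in YJM975.

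Among the genes with the largest rise or fall were transcripts found at or near 0 in all libraries of 1 strain. In RM11 11 tested transcripts were listed at 0 in all 3 ethanol libraries, and in YJM975 2 were. YHR052W-A and YHR054W-A, which carry identical values, were listed at 0 in the 3 RM11 libraries and stood at 305, 316 and 304 TPM in YJM975. YEL077W-A was listed at 0 in the 3 RM11 libraries and stood at 32.7, 27.9 and 34.6 TPM in YJM975, and YJL225W-A and YIL177W-A, again with identical values, were listed at 0 in the 3 RM11 libraries and stood at 28.4, 19.5 and 21.8 TPM in YJM975. None of these 5 was matched to the annotation used here. VBA3, a vacuolar transporter of basic amino acids with a close copy in VBA5, stood at 0, 0 and 0.0195 TPM in RM11 and at 15.8, 11.9 and 14.9 TPM in YJM975. ARR3, an arsenite exporter, stood at 1.91, 1.34 and 1.72 TPM in RM11 and at 12.3, 11.4 and 11.3 TPM in YJM975, a difference of 2.26 ± 0.10, adjusted p = 5.67e-08. ADF1, which overlaps FYV5 on the other strand so that their reads may be mixed, stood at 0.00137, 0 and 0 TPM in RM11 and at 17.5, 22.97 and 7.34 TPM in YJM975. YNR077C (3.84 ± 0.15, adjusted p = 1.64e-08), YPR204W (3.45 ± 0.20, adjusted p = 2.81e-07) and YHR125W (2.96 ± 0.19, adjusted p = 5.87e-07) were also among the 14 largest rises, YPR204W as 1 member of a repeated family of near-identical genes. The sum over that family was 51.3, 48.7 and 51.2 TPM in the RM11 libraries and 80.3, 84.01 and 77.1 in the YJM975 libraries, a difference of 0.66 ± 0.06, adjusted p = 6.39e-06.

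Among the 14 largest falls, YIR042C stood at 25.8, 24.4 and 20.02 TPM in RM11 and at 0, 0 and 0.0457 TPM in YJM975, and YPL257W stood at 23.04, 18.3 and 18.3 TPM in RM11 and at 0, 0 and 0.0606 TPM in YJM975. PAU3, a seripauperin with several near-identical relatives, stood at 31.4, 27.02 and 27.3 TPM in RM11 and at 0.898, 1.04 and 0.749 TPM in YJM975. With its near-identical relatives the sum was 52.9, 49.7 and 54.3 TPM in the RM11 libraries and 13.3, 11.8 and 12.8 in the YJM975 libraries, a difference of -1.97 ± 0.07, adjusted p = 4.90e-09. TOS6, a wall protein gene known as a target of SBF, stood at 253, 241 and 262 TPM in RM11 and at 44.7, 44.5 and 45.4 TPM in YJM975, a difference of -2.46 ± 0.06, adjusted p = 3.91e-10. LSB1, a binding partner of the actin nucleation factor Las17, stood at 133, 117 and 129 TPM in RM11 and at 22.7, 21.9 and 24.8 TPM in YJM975, a difference of -2.40 ± 0.07, adjusted p = 2.11e-09. In TOS6 and LSB1 each YJM975 library was several times below each RM11 library. YER186C, YGR137W and TYC1 differed by -2.32 ± 0.08 (adjusted p = 1.16e-08), -2.31 ± 0.10 (adjusted p = 4.69e-08) and -2.22 ± 0.21 (adjusted p = 1.09e-05). The RM11 and YJM975 transcripts were quantified with sequences whose strain is not given in the sources used here, and the part that sequence divergence plays in such values was not tested.

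The strain difference in ethanol was tested against that in each other medium, and both tests share the 6 ethanol libraries. Against glycerol the strain difference changed for 5034 of 6244 genes (80.6%), being higher in ethanol for 4077 (65.3%) and lower for 957 (15.3%), with a median shift of 0.59. Against the libraries labelled glucose it changed for 4790 (76.7%), higher for 3542 (56.7%) and lower for 1248 (20.0%), with a median shift of 0.40. After median centring the splits were 2065 higher and 2747 lower against glycerol, and 2245 and 2598 against glucose. The glucose libraries carry another run label, and ICL1, a gene repressed by glucose, stood there at 1791 ± 107 TPM in the RM11 cultures and 401 ± 36.02 in those of YJM975, so their medium is given as labelled. The median gene differed between the strains by -0.59 in glycerol and -0.39 in glucose, beside 0.03 in ethanol. Genes called higher in ethanol whose strain difference was also higher there than in both other media, by both tests, numbered 1020 (16.3%). Those called lower, with a difference lower than in both other media, numbered 190 (3.04%). Distance from 0 was not compared, so such a gene can differ more, with the opposite sign, in another medium. These joint counts were not computed after median centring, under which each test called more genes lower than higher.

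Ribosome-related lists had positive medians in ethanol and negative medians in the other media, below those of the median gene. The median of the ribosome biogenesis list was 0.59 in ethanol, -2.38 in glycerol and -0.88 in glucose, and the difference from glycerol was called higher for 130 of 130 members, or for 127 with 2 lower after median centring. NSR1 differed between the strains by 1.53 in ethanol, -3.49 in glycerol and -1.84 in glucose. For large-subunit ribosomal proteins the medians were 0.17, -1.26 and -1.96. Purine genes had medians of 0.65, -0.55 and -0.53, the last 2 near the median gene, though SHM2 also had a positive difference in glycerol, 1.72.

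The respiratory chain list had a negative median in ethanol alone of the 3 media, -0.45 in ethanol, 0.40 in glycerol and 0.29 in glucose. The difference from glycerol was called lower for 25 of 29 members and that from glucose for 25, and after median centring for 29 and 28. CYC1 differed by -1.91, 0.40 and -0.35 in ethanol, glycerol and glucose. The medians of the cyclin and replication lists were negative in all 3 media. Cyclins and regulators had medians of -0.59, -1.31 and -0.66, and PCL1 differed by -2.83, -3.43 and -3.73. Replication genes had medians of -0.34, -1.30 and -1.08. Histones had medians of -0.44 and -1.25 in ethanol and glycerol but 0.18 in glucose. Sucrose and maltose genes had medians of -0.96, -1.18 and -0.69, and MAL11 differed by -4.51, -4.47 and -4.72.

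**Figure D5:**
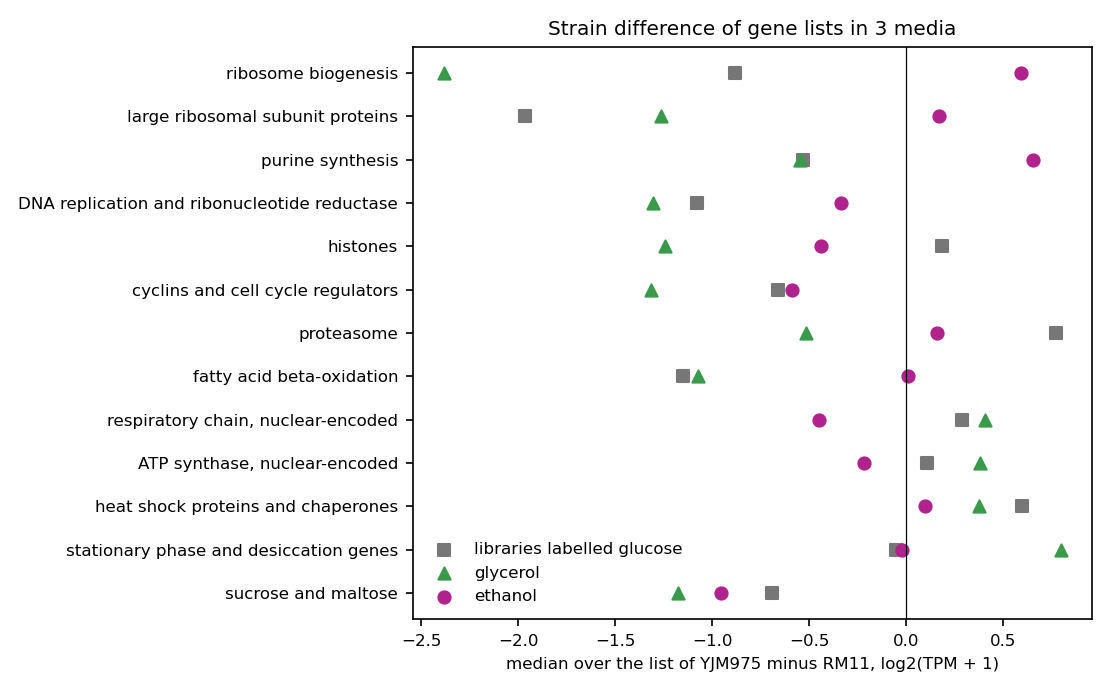
Median strain difference of 13 gene lists (x axis, YJM975 minus RM11, log2 of TPM + 1; rows are lists) in ethanol (circles), glycerol (triangles) and the libraries labelled glucose (squares), 6 libraries per medium. Ribosome biogenesis lies at 0.59 in ethanol and left of 0 in the other media, and the respiratory chain at -0.45 in ethanol and right of 0 in the others.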

How the data were processed

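Total polyadenylated RNA of 18 yeast cultures was sequenced. The authors' deposited table gives TPM per transcript and library; kallisto, a tool that assigns reads to transcripts without alignment, is named in the submitters' processing notes, without a version. Not given in the sources used here were the transcript set, genome build, strandedness and read depth. TPM are relative, so a large change in a few abundant transcripts moves all others. The 6 ethanol libraries were read by column name, and no column was left unused. Transcripts with a mean of 1 TPM or more were transformed to log2(TPM + 1) and fitted with limma 3.58.1 (R 4.3.3), 1 mean per strain, with a trended prior variance. P-values were adjusted by Benjamini and Hochberg over all 6244 transcripts, with a threshold of 0.05. Strain differences between media were tested as interactions in 12 libraries each. Differences of list shares were left as values. The fits were tested on simulated data with known changes. The tables of names, copies (BLAST 2.17.0, at least 95% identity over 50% of the length), overlaps and promoters came from RefSeq for assembly R64 of strain S288C, which matched 5728 of the 6244 transcripts; Python 3.11.15, pandas 2.3.3, NumPy 2.4.6 and matplotlib 3.10.9 were used.

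The members and the 45 gene lists were chosen with earlier results of these data known. Named were the 14 largest rises and 14 largest falls among called genes with 10 TPM or more in the higher strain and no overlap; in each list the called members with the largest changes, at most 4; any member of the ethanol oxidation, glyoxylate and gluconeogenesis, respiratory chain, cyclin, histone, and sucrose and maltose lists; the 5 extreme differences in each direction against each other medium; and copies or overlapping neighbours of these. Members called against their list's direction, the marker genes, paralogs given for comparison, and CCW12, CDC21, DDR2, PDC1, SIP18, SNZ1 and SPG1 were named after their values were seen. Alternatives were other pseudocounts, filters, scalings, variance models and sample sets, each library left out, and copies summed.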

Additional observations from a re-analysis of the deposited data

Results flagged for a closer look

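These values are listed because the strain difference in ethanol differed from that in another medium by limma's test of the difference itself, and none was weighed further. Against glycerol the strain difference was higher in ethanol for 4077 genes and lower for 957. The 5 genes with the largest positive values were ADF1 at 7.35, SPS4, a sporulation gene, at 7.31, YDR042C at 6.32, HXK2 at 5.85 and SPO19, a spore wall gene, at 5.79. A positive value need not mean a higher level in YJM975 in ethanol. There ADF1, HXK2 and SPO19 were called higher, SPS4 lower (-1.33), and YDR042C was not called (-0.23). The strain difference of HXK2 was 1.18 in ethanol and -4.67 in glycerol. ADF1 was at 10.4 ± 5.10 TPM in the RM11 cultures and 3.81e-09 ± 6.61e-09 in those of YJM975 in glycerol, so that its strain difference changed sign. The 5 most negative values were those of FLO11 at -5.17, YPL222C-A at -4.62, HSP30 at -3.64, VHT1, the biotin transporter, at -3.36 and FRE7, a ferric reductase gene, at -3.18. FLO11 stood higher in YJM975 in both media, by 3.04 in ethanol and 8.22 in glycerol. YPL222C-A varied widely between the libraries of YJM975, which had 11.6, 21.9 and 68.3 TPM in ethanol.

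Against the libraries labelled glucose the strain difference was higher in ethanol for 3542 genes and lower for 1248. The largest positive values were those of DPA10 at 7.05, BIO3, of biotin synthesis, at 4.80, PDC6, a minor pyruvate decarboxylase, at 4.71, THI4 at 4.37 and BIO4, also of biotin synthesis, at 4.22. In ethanol itself BIO3 and THI4 were called higher in YJM975, DPA10 (-0.21) and BIO4 (-0.41) lower, and PDC6 was not called (-0.025). The most negative were those of CYC7 at -5.08, YMR254C at -3.69, HPF1, a wall mannoprotein, at -3.03, HOT13, of the mitochondrial intermembrane space, at -2.78 and YGR035C at -2.71. CYC7 was lower in YJM975 in ethanol, by -1.51, and higher in glucose, by 3.57.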

How the results depend on the processing

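In ethanol, 2243 to 2769 genes were called when 1 library was left out, 1241 to 1677 of them higher and 1002 to 1233 lower, with 128 to 156 higher and 142 to 164 lower by at least 2-fold. No sign of pairing by replicate number was seen: the deviations of same-numbered libraries correlated at -0.116, 0.008 and 0.048, and 1 of 6 libraries correlated best with its own number. These values cannot show whether same-numbered cultures were handled together. A fit with the replicate number as a block called 2826 genes, 1583 higher and 1243 lower. At least 2-fold differences numbered 92 higher and 67 lower with a pseudocount of 5, and 89 and 88 with a filter at 10 TPM. Quantile normalization called 1526 genes higher and 1556 lower, rescaling without the 50 most abundant genes 1420 and 1490, and library weights 3635 in all. Against glycerol, leaving out 1 library gave 4909 to 5040 calls, the replicate block 4981, quantile normalization 2100 higher and 2711 lower, median centring 2065 and 2747, and rescaling without the 50 most abundant genes 1668 lower. Against glucose, leaving out 1 library gave 4639 to 4757 calls, the replicate block 4846, quantile normalization 2194 and 2550, and median centring 2245 and 2598. Of 298 named genes, 15 lost their call under at least 1 alternative and 9 gained it. The difference of SIP18 became 0 under quantile normalization, which gives the most abundant transcript the same value in each library, and the median of the histidine and aromatic list became -0.007 with library weights, of which the cause was not tested. Depth is unknown, so precision at low TPM cannot be given.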
